A study of Macaca mulatta with 2 samples.

Results

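Neuropeptide precursors are the genes through which cortical neurons make peptide transmitters. The 10 genes chosen by name were NPY, CCK, TAC1, TAC3, PENK, PDYN, CORT, CRH, PNOC and ADCYAP1, and 9 of them were found among the 33618 genes of the count table. CORT, the cortistatin precursor, was not listed under its symbol or under its NCBI gene number, so it has no value here. The libraries came from the prefrontal cortex of rhesus macaques (Macaca mulatta), with total RNA from 1 control animal (PFC CON 1) and 1 animal given repeated sevoflurane, an inhaled anesthetic (PFC SEV 1). The labels give no strain, genotype or other agent, and put both animals at postnatal day 28. By the labels, the exposures took place on about postnatal days 7, 14 and 28, for 4 h each at 2.5 to 3% sevoflurane, whereas the methods of the study give later days for all but the first. The cortex was collected right after the last exposure, and the sources used here do not say how the control macaque was handled before collection. The study describes 3 animals per group, of which 1 library each is analysed here. There are thus no replicates, so every difference below is between 2 libraries and not between conditions, and no p-value is given.

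A neuropeptide is cut out of a larger precursor protein by prohormone convertases inside dense-core granules, is released mainly during strong firing, and acts on G protein-coupled receptors. In the cortex most of these precursors mark subsets of GABAergic interneurons, CCK is also made by pyramidal cells, and ADCYAP1 is made mainly by glutamatergic neurons. Transcription of several of them, such as CRH, PENK and ADCYAP1, is known to follow neuronal activity.

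Reads on genes came to 16960880 in the control library and to 9839105 after sevoflurane. Levels are given in CPM, counts relative to a common library size after scaling by edgeR's TMM factors, and 1 read was worth 0.0595 CPM (control) or 0.101 CPM (sevoflurane). Each log2 ratio is sevoflurane over control with a prior count of 2, and its 95% interval is the exact Clopper-Pearson interval of the share of reads from the sevoflurane library. Intervals cover counting error only. The 7 Y-linked genes on the list used here held 3 control and 4308 sevoflurane reads, so the 2 animals behind the libraries differed in Y-linked expression as well as in exposure. The study describes only females in its control group and a male among its anesthesia group. The parts of animal, sex and exposure cannot be told apart.

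Of the 9 precursors, 1 was lower by 2-fold or more after sevoflurane, ADCYAP1, and none was higher by as much. Over all 18050 genes tested, 13.0% were 2-fold apart or more, with 5.47% lower and 7.56% higher. Counting any size of difference whose interval left out equal expression, 4 precursors were lower (ADCYAP1, PNOC, CRH and PDYN), against 28.1% of all genes tested, and 2 were higher (TAC1 and PENK), against 28.4%. The intervals of CCK, NPY and TAC3 included equal expression, as did those of 43.5% of all genes tested. The median log2 ratio of the 9 was 0.17, beside -0.0048 over all genes tested, but with a minimum of 5 CPM, which TAC3 did not reach, it was -0.051. Scaling to GAPDH or to neuron markers moved the median of all genes to 0.15 and 0.18, and changed the numbers of all genes at least 2-fold higher and lower from 1364 and 988 to 1762 and 740 with GAPDH and to 1854 and 718 with neuron markers.

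**Figure D1:**
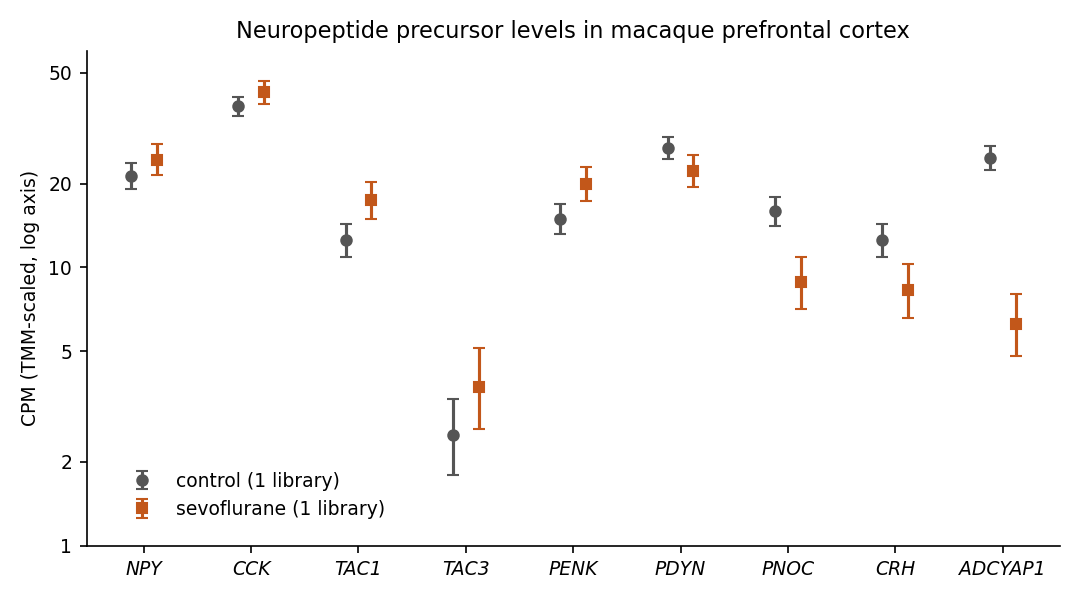
Level of each precursor in CPM on a log axis, with 1 point for the control library (grey circles) and 1 for the sevoflurane library (orange squares), and exact 95% Poisson intervals as bars. ADCYAP1 went from 24.8 to 6.24 CPM, while NPY, CCK, PDYN and TAC3 have overlapping intervals.

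ADCYAP1 encodes the precursor of PACAP, a peptide that raises cAMP in its target neurons. Its 416 control and 62 sevoflurane reads amount to 24.8 CPM (exact Poisson 95% interval 22.4 to 27.3) and 6.24 CPM (4.79 to 8.0). The sevoflurane level was 25.2% of the control level, or 3.97-fold lower, with a log2 ratio of -1.96 (95% interval -2.40 to -1.60). A ratio as low or lower was found in 1.29% of all genes tested. Its main receptor, ADCYAP1R1, was also lower but by less, at 278 and 217 CPM (log2 ratio -0.36, 95% interval -0.43 to -0.28). VIPR1, a receptor that PACAP shares with VIP, was higher, with 420 and 397 reads in the libraries of unequal depth (log2 ratio 0.67, 95% interval 0.48 to 0.88). The remaining shared receptor, VIPR2, had 39 and 32 reads, and its interval of -0.25 to 1.19 included equal expression. Relative to ADCYAP1R1, ADCYAP1 stood at 0.32 of its control proportion (exact 95% interval of the odds ratio 0.24 to 0.43), a comparison that does not depend on how the libraries are scaled.

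PNOC encodes the precursor of nociceptin, an opioid-related peptide that does not bind the classical opioid receptors. It had 267 control and 88 sevoflurane reads, or 15.9 CPM (14.0 to 17.9) and 8.86 CPM (7.11 to 10.9). Its log2 ratio was -0.83 (95% interval -1.21 to -0.49), which is 55.8% of the control level and short of 2-fold, and 7.91% of all genes tested were as low or lower. The nociceptin receptor gene OPRL1 lay on the other side. It had 467 control and 650 sevoflurane reads, 27.8 and 65.5 CPM, and a log2 ratio of 1.23 (95% interval 1.06 to 1.41). OPRL1 was the only receptor on the list called at least 2-fold higher, since CRHR2 reached 2.04-fold only without the prior count, and PNOC relative to OPRL1 stood at 0.24 (0.18 to 0.31).

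PENK and PDYN, the precursors of the enkephalins and the dynorphins, lay on either side of equal expression. PENK had 251 and 198 reads in the control and sevoflurane libraries, or 14.9 CPM (13.1 to 16.9) and 19.9 CPM (17.3 to 22.9), with a log2 ratio of 0.41 (95% interval 0.14 to 0.69). PDYN had 451 and 221 reads, or 26.8 CPM (24.4 to 29.4) and 22.3 CPM (19.4 to 25.4), with a log2 ratio of -0.27 (95% interval -0.51 to -0.03). The PDYN interval came closest to equal expression of the 4 lower precursors, and it included equal expression when the libraries were scaled to GAPDH, to neuron markers or to GABAergic markers. The change of PDYN was 1.61-fold lower than that of PENK (exact 95% interval 1.25 to 2.07), and that of PNOC was 2.39-fold lower than that of PENK (1.75 to 3.29).

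Among the classical opioid receptors, OPRD1, the delta receptor on which enkephalins act, was at 19.1 and 25.4 CPM with a log2 ratio of 0.41 (95% interval 0.17 to 0.65), close to that of PENK. PENK relative to OPRD1 stood at 1.00 (0.78 to 1.30). OPRM1, the mu receptor, had 141 control and 32 sevoflurane reads and a log2 ratio of -1.34 (95% interval -1.98 to -0.82), and PENK relative to OPRM1 stood at 3.47 (2.24 to 5.50). OPRK1, the kappa receptor for dynorphins, had 212 and 61 reads and a log2 ratio of -1.02 (95% interval -1.47 to -0.62). Both were thus lower by 2-fold or more, and PDYN relative to OPRK1 stood at 1.70 (1.22 to 2.40).

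CRH encodes corticotropin-releasing hormone, which in the cortex is a peptide of local interneurons. It had 210 control and 82 sevoflurane reads, or 12.5 CPM (10.9 to 14.3) and 8.26 CPM (6.57 to 10.2), with a log2 ratio of -0.59 (95% interval -0.98 to -0.22). This was 66.1% of the control level. CRHR1, its main cortical receptor, was at 44.4 and 52.6 CPM (log2 ratio 0.24, 95% interval 0.08 to 0.41), and CRHR2 had 39 and 47 reads (log2 ratio 0.98, 95% interval 0.38 to 1.68). CRHBP, a secreted protein that binds and holds CRH, had 388 and 189 reads (log2 ratio -0.28, 95% interval -0.54 to -0.02). So both receptors were higher and the peptide lower, and CRH relative to CRHR1 stood at 0.56 (0.42 to 0.74). The binding protein was lower too, but its interval ended close to equal expression. CRH relative to CRHBP stood at 0.80, and there the interval of 0.58 to 1.10 included 1.

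TAC1 and TAC3 are the tachykinin precursors, of substance P and of neurokinin B. TAC1 had 211 control and 173 sevoflurane reads, or 12.6 CPM (10.9 to 14.4) and 17.4 CPM (14.9 to 20.2), with a log2 ratio of 0.47 (95% interval 0.17 to 0.77). This was 1.39-fold higher. TAC3 had 42 and 37 reads, the fewest of the precursors in both libraries, or 2.50 CPM (1.80 to 3.38) and 3.73 CPM (2.62 to 5.14). Its log2 ratio of 0.55 was the highest of the 9 in these libraries, but its interval of -0.10 to 1.25 ran from below equal expression to above 2-fold. With TMM scaling, a difference was thus not detectable at this depth. With GAPDH, neuron or GABAergic markers as reference, the TAC3 interval lay above equal expression. TACR1, the substance P receptor, had 49 and 21 reads and an interval of -1.28 to 0.30. TACR3, the neurokinin B receptor, had 8 and 1 reads and TACR2 had 4 and 2, both below the minimum of 1 CPM.

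NPY, neuropeptide Y, and CCK, cholecystokinin, are among the most used peptide markers of cortical interneurons. NPY had 358 control and 242 sevoflurane reads, or 21.3 CPM (19.2 to 23.6) and 24.4 CPM (21.4 to 27.6), with a log2 ratio of 0.19 (95% interval -0.05 to 0.43). CCK had 636 and 422 reads, or 37.8 CPM (35.0 to 40.9) and 42.5 CPM (38.5 to 46.7), with a log2 ratio of 0.17 (95% interval -0.01 to 0.35). Both intervals held equal expression and left out a 2-fold difference in either direction. With library totals or with the control library sampled down, the CCK interval lay above equal expression, and with GAPDH, neuron or GABAergic markers as reference those of both genes did, as did that of TAC3.

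The receptors of NPY and CCK with the most reads had ratios close to those of their ligands. NPY1R had 978 control and 625 sevoflurane reads (ratio on the log2 scale 0.11, 95% interval -0.03 to 0.26), and CCKBR had 488 and 329 (log2 ratio 0.19, 95% interval -0.02 to 0.39). NPY relative to NPY1R stood at 1.06 (0.87 to 1.29) and CCK relative to CCKBR at 0.98 (0.81 to 1.19). NPY5R was lower, with 148 and 48 reads and a log2 ratio of -0.85 (95% interval -1.37 to -0.39). NPY2R, a presynaptic receptor, had only 17 and 2 reads, so that its interval of -5.49 to -0.25 gave little precision, and NPY4R, with 10 and 0 reads, was below the minimum of 1 CPM. CCKAR had 23 and 6 reads and an interval of -2.77 to 0.16.

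**Figure D2:**
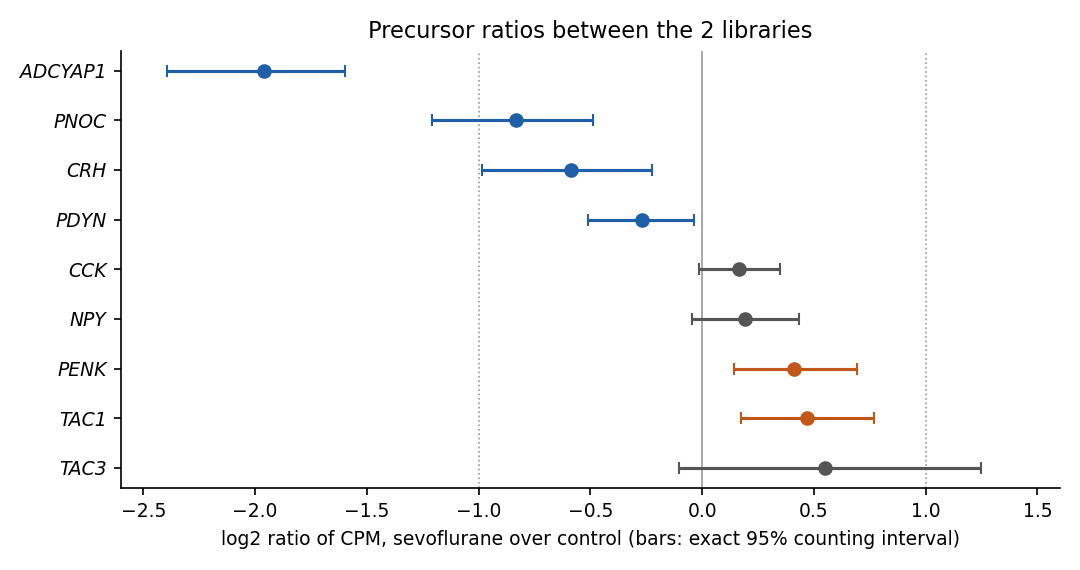
Log2 ratio of each precursor between the sevoflurane and control libraries, with exact 95% counting intervals, ordered from ADCYAP1 at -1.96 to TAC3 at 0.55. Blue points have an interval below equal expression, orange points above, grey points include it, and dotted lines mark 2-fold.

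The 9 ratios were compared pair by pair through the odds ratio of their reads, which is free of the scaling. Of the 36 pairs, 24 had an exact 95% interval that left out 1, with no correction for the number of pairs. ADCYAP1 was below each of the 8 others, from 2.21-fold below PNOC (1.52 to 3.23) to 5.88-fold below TAC3 (3.40 to 10.2). PNOC, CRH and PDYN were each below each of CCK, NPY, PENK, TAC1 and TAC3, in 15 of 15 pairs. Among the latter 5 genes, 0 of 10 pairs could be told apart, with NPY at 1.02-fold of CCK (0.83 to 1.26) and TAC3 at 1.07-fold of TAC1 (0.64 to 1.80). In the order of ratios, 2 of the 8 steps between neighbours were larger than counting error, that from ADCYAP1 to PNOC and that from PDYN to CCK. The genes were grouped by the order of these same ratios, so the counts of pairs describe that order and test nothing. The share of such pairs among all genes was not computed. Summed over the 9 precursors, 2842 control and 1525 sevoflurane reads gave 169 and 154 CPM, so that 90.8% of the summed level remained (log2 ratio -0.14, 95% interval -0.23 to -0.05), while the median of the 9 was above 0 except with the 5 CPM minimum. ADCYAP1 alone made up 24.8 and 6.24 CPM of these sums, a larger difference than that between the sums. Levels are not ranked between genes, because transcript lengths were not at hand.

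CORT itself could not be measured, but the somatostatin receptors on which cortistatin acts were. SSTR2 had the largest change among them, with 1868 control and 306 sevoflurane reads, 111 and 30.8 CPM, and a log2 ratio of -1.85 (95% interval -2.03 to -1.68). SSTR1 had 1685 and 648 reads (log2 ratio -0.62, 95% interval -0.75 to -0.49) and SSTR4 had 168 and 50 reads (log2 ratio -0.97, 95% interval -1.48 to -0.53). SSTR5, with 38 and 42 reads, was higher (log2 ratio 0.86, 95% interval 0.24 to 1.58), and the interval of SSTR3 included equal expression. SST, the somatostatin precursor, had 1061 and 490 reads and a log2 ratio of -0.35 (95% interval -0.51 to -0.20).

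Of the 23 peptide receptors listed, 20 passed the minimum of 1 CPM in either library. At least 2-fold lower were NPY2R, OPRM1, OPRK1 and SSTR2 (4 of 20 genes, against 5.47% of all genes tested), and 1 was at least 2-fold higher, OPRL1 (against 7.56%). NPY2R met the minimum in the control library only (1.01 and 0.20 CPM), which leans its ratio towards lower. Intervals lay below equal expression for 8 of the 20 (against 28.1% of all genes tested) and above it for 6 (28.4%). The median of the 20 was -0.30. By the odds ratios, the ratio of the precursor could not be told apart from that of the receptor for NPY and NPY1R, CCK and CCKBR, and PENK and OPRD1. For other receptors of NPY and PENK it was higher than that of the receptor, at 2.08 for NPY and NPY5R (exact 95% interval 1.43 to 3.07), 5.73 for NPY and NPY2R (1.34 to 51.6) and 3.47 for PENK and OPRM1. It was also higher for PDYN and OPRK1 and for TAC1 and TACR1 (1.91, 1.08 to 3.49). It was lower for PNOC and OPRL1, for CRH with CRHR1 and CRHR2, and for ADCYAP1 with ADCYAP1R1, VIPR1 and VIPR2.

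**Figure D3:**
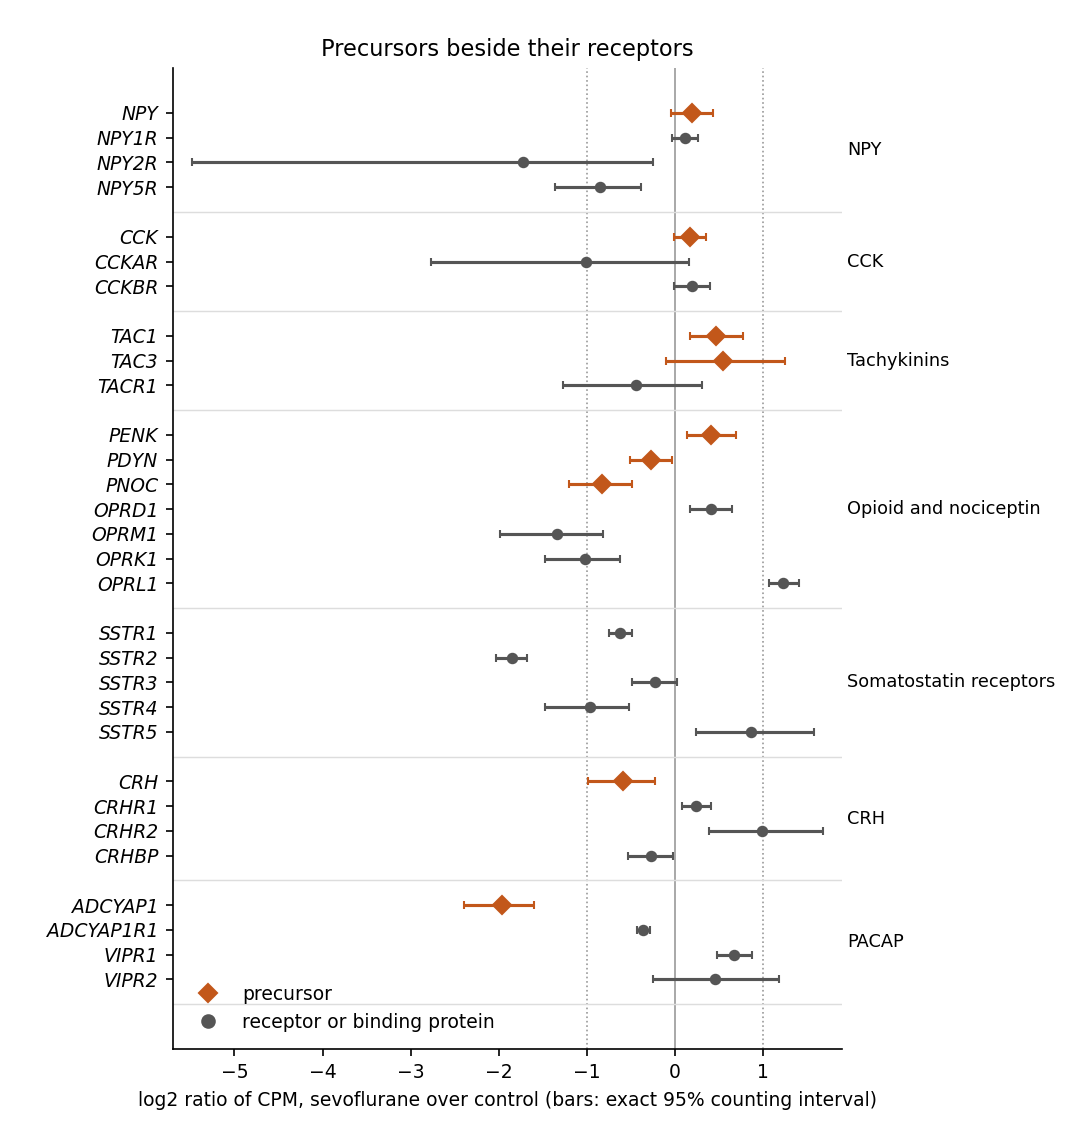
Log2 ratio of each precursor (orange diamonds) above its receptors and, for CRH, its binding protein (grey circles), with exact 95% counting intervals and dotted lines at 2-fold. PNOC at -0.83 and OPRL1 at 1.23 lie on opposite sides, while CCK at 0.17 and CCKBR at 0.19 lie together.

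All 18 genes on the list for precursor cleavage and dense-core granules passed the minimum. PCSK1, the convertase that makes the first cuts in many precursors, was the only one at least 2-fold lower, with 4563 control and 1219 sevoflurane reads, 272 and 123 CPM, and a log2 ratio of -1.14 (95% interval -1.24 to -1.05). None was at least 2-fold higher. PCSK2, the convertase for later cuts, was at -0.65 (95% interval -0.79 to -0.52), and SCG5, the chaperone of PCSK2, at -0.69 (-0.83 to -0.56). PCSK1N, which encodes an inhibitor of PCSK1, was higher, at 79.8 and 153 CPM (log2 ratio 0.94, 95% interval 0.84 to 1.05). So both neuronal convertases were lower while the inhibitor was higher. CPE, which trims the cut ends, was at 0.10 (-0.03 to 0.23), and PAM, which amidates many peptides such as NPY, CCK, CRH and substance P, at -0.25 (-0.35 to -0.16).

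The granule proteins were split as well. CHGA, the gene of this list with the most reads in both libraries, was at 343 and 534 CPM (log2 ratio 0.64, 95% interval 0.59 to 0.69), and CHGB was at 0.53 (0.45 to 0.61). SCG2 and SCG3 were lower, at -0.34 (-0.42 to -0.25) and -0.28 (-0.36 to -0.20). Over the list, 10 of 18 intervals lay below equal expression (against 28.1% of all genes tested), 5 above (28.4%) and 3 included it (43.5%), with a median of -0.27. The share at least 2-fold lower was 5.56%, near the 5.47% of all genes tested. The summed level of the 18 genes was 2475 CPM (control) and 2468 CPM (sevoflurane). Of the 9 genes for peptide breakdown and binding, 1 was at least 2-fold higher (against 7.56% of all genes tested) and none was at least 2-fold lower (5.47%). The higher gene was ANPEP, an aminopeptidase with only 23 control and 36 sevoflurane reads (ratio on the log2 scale 1.31, 95% interval 0.61 to 2.23). MME, which encodes neprilysin and degrades enkephalins and substance P, had 88 and 81 reads (log2 ratio 0.62, 95% interval 0.19 to 1.09).

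Of 35 other neuropeptide and peptide hormone precursors, 17 passed the minimum and 8 had no read in either library. At least 2-fold lower were GRP, CARTPT and NPPC (3 genes, against 5.47% of all genes tested), and PYY, with 14 and 19 reads, was at least 2-fold higher (against 7.56%). PYY met the minimum in the sevoflurane library only (0.83 and 1.91 CPM), which leans its ratio towards higher. NPPC met it in the control library only (3.57 and 0.81 CPM), which leans its ratio towards lower. GRP, gastrin-releasing peptide, had 151 control and 37 sevoflurane reads (ratio on the log2 scale -1.24, 95% interval -1.83 to -0.74). CARTPT, a precursor induced by activity in several brain regions, had 116 and 17 reads (log2 ratio -1.92, 95% interval -2.84 to -1.27), and NPPC, the C-type natriuretic peptide precursor, had 60 and 8 (log2 ratio -1.96, 95% interval -3.42 to -1.08). VGF, an activity-regulated granule precursor and the most counted of this list, was at 166 and 103 CPM (log2 ratio -0.69, 95% interval -0.80 to -0.59). VIP had 157 and 95 reads and an interval of -0.35 to 0.41. The median of the 17 was 0.03, beside 0.17 for the 9 precursors.

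The tissue was checked against markers. The 6 hypothalamic genes, such as HCRT, OXT and AVP, had 8 control and 12 sevoflurane reads in all, with HCRT, PMCH and OXT at 0 in both libraries, whereas SLC17A7, the vesicular glutamate transporter of cortical pyramidal cells, was at 998 and 914 CPM. Genes prominent in striatum were present in both libraries, and of these 4 genes PPP1R1B was at least 2-fold higher (38.3 and 90.5 CPM), so a check for striatal tissue, where PENK, PDYN and TAC1 are abundant, gave no clear answer. DRD1 and DRD2, which mark the projection neurons of striatum, were at -0.48 (-0.71 to -0.26) and -0.27 (-0.71 to 0.15, which includes equal expression). The remaining gene, ADORA2A, was higher, at 0.40 (0.03 to 0.78). The summed level of the 4 went from 87.4 to 132 CPM, and its part in the ratios of PENK and TAC1 was not tested. The 5 meningeal and choroid plexus genes summed to 203 CPM (control) and 347 CPM (sevoflurane), with none at 0. COL1A1 was at 1.14 (1.04 to 1.25) and COL1A2 at 0.60 (0.49 to 0.71), TTR had 2 and 31 reads (95% interval 2.74 to 7.82), and the intervals of DCN and LUM included equal expression. The part of these tissues in the higher receptors and peptidases, such as VIPR1, CRHR2 and ANPEP, was not tested.

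Markers of GABAergic neurons spanned a narrower range than the precursors. None of the 8 GABAergic markers was 2-fold apart, against 13.0% of all genes tested. Their ratios ran from -0.34 (SLC32A1) to 0.26 (ADARB2), with a median of -0.21 and summed levels of 466 and 401 CPM. GAD1, which makes GABA, was at -0.23 (-0.31 to -0.16) and GAD2 at -0.30 (-0.44 to -0.17). Against GAD1 as reference, ADCYAP1 (0.30, exact 95% interval 0.22 to 0.39) and PNOC (0.65, 0.51 to 0.84) were lower, CRH (0.78, 0.59 to 1.01) and PDYN (0.97, 0.82 to 1.16) could not be told apart from it, and the other 5 were higher, from CCK (1.32, 1.15 to 1.51) to TAC3 (1.75, 1.09 to 2.80). GAD2, SLC32A1 and SST as reference gave the same numbers of lower and higher precursors, 2 and 5. The number of higher precursors varied with the marker. Against SLC17A7, 3 were lower and the same 5 were higher. Against VIP, which had 157 and 95 reads, 3 were lower and none had an interval above 1. The 5 that were higher against GAD1 still had ratios above 1 there, from CCK (1.10, 0.82 to 1.47) to TAC3 (1.45, 0.84 to 2.50). RBFOX3, a marker of all neurons, was itself higher (log2 ratio 0.83), the only 1 of 7 neuron markers with an interval above equal expression. Against it, 8 precursors were lower and none was higher, with PENK at 0.75 (0.61 to 0.91) and TAC1 at 0.78 (0.63 to 0.96). In bulk tissue, fewer cells of a type and less RNA per cell cannot be told apart.

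Markers of interneuron classes differed widely in ratio. PVALB, which marks fast-spiking basket cells, was higher, with 68 control and 221 sevoflurane reads (ratio on the log2 scale 2.42, 95% interval 2.06 to 2.87), and over the 10 class markers the ratios ran from -2.09 (HTR3A) to that value, with summed levels of 493 and 416 CPM. HTR3A had only 37 and 4 reads. It met the minimum of 1 CPM in the control library only (2.20 and 0.40 CPM), which leans its ratio towards lower. Of the 7 glutamatergic markers, SLC17A7 was at -0.13 (-0.16 to -0.09), while the lowest and the highest, singled out after their values were seen, were NEUROD6 at -2.69 and SLC17A6 at 1.73, and the summed levels were 3552 and 4045 CPM. Against SLC17A7, ADCYAP1 stood at 0.28 (0.21 to 0.36). Over the 7 markers of all neurons the median was -0.36, with RBFOX3 at 0.83 and summed levels of 7410 and 6060 CPM. No marker of these lists was at 0, and the part of the makeup of the tissue in the precursor ratios was not tested.

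Other lists moved further than the precursors as a whole. Of 15 immediate early genes, which neurons switch on with activity, 7 were at least 2-fold lower (against 5.47% of all genes tested), 1 was at least 2-fold higher (against 7.56%), and the median was -0.97, with summed levels of 1252 and 812 CPM. All 6 oligodendrocyte markers had intervals below equal expression, against 28.1% of all genes tested (median -1.17, summed levels of 4056 and 1994 CPM), as were 5 of 6 astrocyte markers (median -0.57, 6082 and 4199 CPM). The part of these lists in the precursor ratios was not tested.

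**Figure D4:**
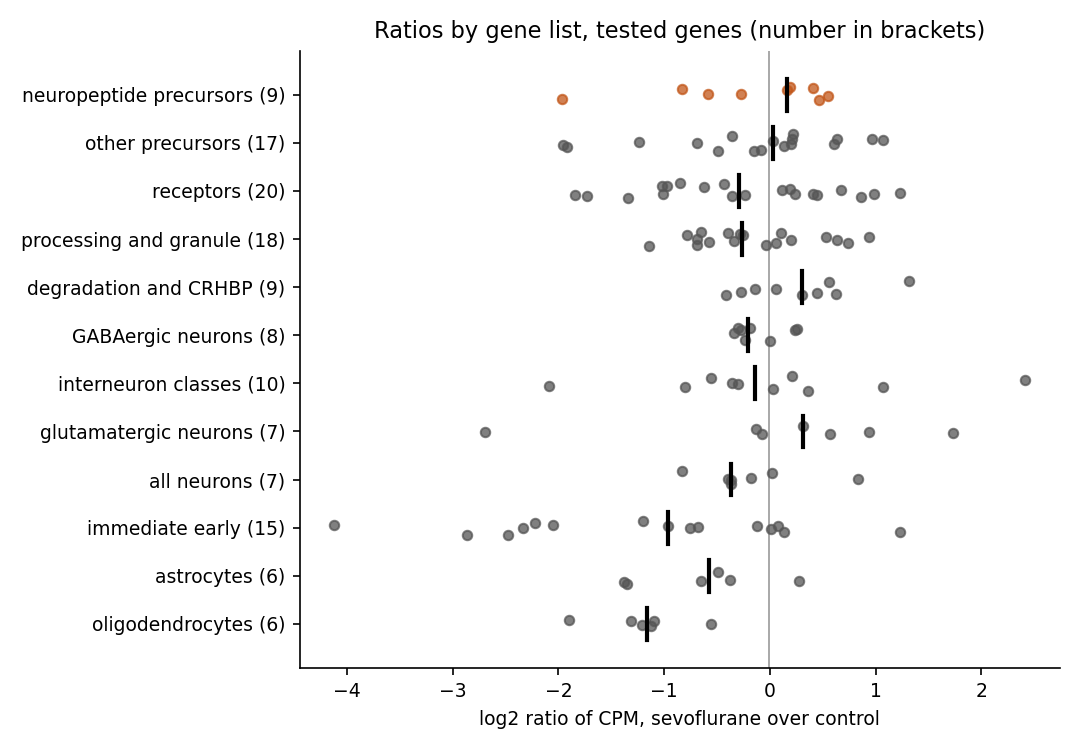
Log2 ratio of each tested gene (points) by list, with the list's median as a black bar, the number of tested genes in brackets, and a grey line at the median of all genes tested (-0.0048). The 9 precursors (orange) run from -1.96 to 0.55 around a median of 0.17, whereas the immediate early genes have a median of -0.97.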

How the data were processed

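Total RNA from macaque prefrontal cortex was sequenced. The series describes 3 animals per group, of which 1 library per group was analysed here. The deposited table holds raw whole-number counts of reads for 33618 genes, not normalized by the authors, and its 2 columns were assigned by the sample titles. The submitters' processing notes name HISAT2 2.0.4 as a tool. The counting tool, genome build, annotation and strand setting are not given in the sources used here, so no coordinates are printed, and no sequences were at hand.

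From the counts, TMM factors (0.991 and 1.01) came from edgeR 4.0.16 (R 4.3.3) and the 18050 genes that reached 1 CPM in a library, called tested. Ratios used a prior count of 2. Intervals are exact (scipy 1.17.1). A gene was called when it was at least 2-fold apart and its 95% interval left out equal expression. The quasi-likelihood test of edgeR needs replicates and was not run. The procedure was tested on simulated counts with counting error only. They held no variation between animals and no TMM scaling, so the simulation does not bear on either.

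The precursors and lists were chosen with earlier results of these data known. All precursors are named, with the receptors of each by known pairing, every gene of the receptor, processing and other precursor lists past 2-fold, the most counted gene of each, and 8 cell markers. 1 item of the GABAergic marker list is not reported here and was left out of that list. Further genes were named after their values were seen. List genes were matched by symbol, and 4 (CADPS2, PTPRN2, CALB2 and NR4A1) by NCBI gene number through the RefSeq table of a macaque assembly. The alternatives changed the scaling (size factors of DESeq2 1.42.0, totals, upper quartile, or GAPDH, neuron or GABAergic markers as reference), the prior count (0.5), the minimum (1 read, or 5 CPM), the depth of the control library (sampled down), the interval (a stricter level) and the threshold (1.5-fold, 4-fold). Figures were drawn with matplotlib 3.10.9.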

Additional observations from a re-analysis of the deposited data

How the results depend on the processing

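No precursor changed direction under any of the 10 alternatives to scaling, prior count, filter or depth, and of 89 such values 88 stayed within their counting interval. The 89 include the filters of 1 read and of 5 CPM, which cannot change the ratio of a gene that passes. CCK left it with neuron markers as reference (0.35). ADCYAP1 ranged from -1.98 to -1.78 and PNOC from -0.84 to -0.65. At a threshold of 1.5-fold, 3 precursors were called lower (against 11.9% of all genes tested), and at 4-fold 0 were (against 1.22%). The median of the precursors moved to 0.32 with GAPDH, 0.35 with neuron markers and 0.27 with GABAergic markers as reference, which moved all genes by a like amount. With a filter of 5 CPM the median was -0.051, since TAC3 no longer passed. With the stricter interval, 2 precursors stayed below equal expression and 0 above. The shares of all genes tested below and above it were not computed for that interval, so these counts have no background to be read against.

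No paired analysis was possible because the groups hold 1 library each, and for the same reason none was left out. The depth of the sevoflurane library limits ratios of genes with few reads, TAC3 among the precursors.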
